A study of Homo sapiens with 6 samples.

Results

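The histone genes of the genomic histone clusters were examined in human definitive endoderm with and without knockdown of the long noncoding RNA GATA6-AS1. They were taken as every row of the deposited TPM table whose symbol begins with HIST1H, HIST2H, HIST3H or HIST4H, which gave 89 of 58830 rows. By the letters after the cluster number, 8 rows belong to class H1, 22 to H2A, 26 to H2B, 17 to H3 and 16 to H4. All 89 symbols were found in GENCODE 29, where 71 are protein coding and 18 are pseudogenes. On GRCh38, 65 lie on chromosome 6, 21 on chromosome 1, 1 on chromosome 12 and 2 on chromosome 13. The symbols are the older ones of the deposited table.

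Libraries were made from total RNA of HuES8 cells, a human embryonic stem cell line, that had been turned into endoderm. The knockdown group (KD) was HuES8 endoderm labelled with GATA6-AS1 knockdown, and the comparison group (DE) was wild-type HuES8 endoderm, with 3 libraries each. Both groups received 100 ng/mL Activin A with 2.5 µM CHIR, an inhibitor of GSK3, at day 1 and then Activin A alone for 2 days, in medium with 0.2% BSA. How the knockdown was made, whether DE carried a control construct and whether replicates were separate cultures is not stated in the labels. The p-values therefore cover the spread between 6 libraries, which may be technical.

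Histones package DNA into nucleosomes, with H2A, H2B, H3 and H4 forming the core and H1 binding the linker DNA. Most genes of the clusters are replication-dependent: they lack introns, are transcribed in S phase by a machinery organised by NPAT, and make mRNA that ends in a conserved stem-loop in place of a poly(A) tail. The stem-loop is bound by SLBP, the stem-loop binding protein. Some cluster genes can also make polyadenylated mRNA. Replacement histones encoded elsewhere in the genome, such as H3F3A and H2AFZ, generally do and are made through the cell cycle.

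The tail decides which RNA a poly(A)-based library holds. Stem-loops found by a search of GENCODE 29 transcript sequences are therefore shown for 6 of the genes described here. Each run has 26 bases, with the 6 bases of either arm of the stem in capitals and the 4 bases of the loop between them in lower case.

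HIST1H2BC: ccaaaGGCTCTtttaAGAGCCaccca
HIST1H2BD: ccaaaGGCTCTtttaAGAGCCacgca
HIST1H2AE: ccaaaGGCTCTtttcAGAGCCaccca
HIST2H2AA3: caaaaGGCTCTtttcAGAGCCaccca
HIST1H4H: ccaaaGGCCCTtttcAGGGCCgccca
HIST1H4J: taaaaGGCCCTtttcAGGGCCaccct

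These stretches lie on GRCh38 at the following places: HIST1H2BC at chr6:26123467-26123492 (minus strand), HIST1H2BD at chr6:26158582-26158607 (plus strand), HIST1H2AE at chr6:26217412-26217437 (plus strand), HIST2H2AA3 at chr1:149842218-149842243 (minus strand), HIST1H4H at chr6:26285126-26285151 (minus strand), HIST1H4J at chr6:27824454-27824479 (plus strand). The search asked for a perfect 6-base stem that opens with GG and pyrimidines, around a 4-base loop that opens with TT, within the last 150 bases of a transcript. It found 14 of the 89 genes, which held 3 different stem-loops: 8 genes had the one shown for HIST1H2AE, 3 the one shown for HIST1H2BC and 3 the one shown for HIST1H4H. It found 1 of 83047 protein-coding transcripts of other genes. Of the 71 genes with an annotated stop codon, 35 had transcript models that end at that codon, so that the model stops short of any stem-loop. HIST1H2BK and HIST1H1C, the pair with the highest levels, are of this kind. The poly(A) signal AATAAA stood in the last 40 bases of at least 1 transcript in 24 of 89 genes (27.0%), and 7 genes had both features. Of the protein-coding transcripts of other genes, 34.42% had the signal. These shares are not on the same footing, since the first counts genes and the second transcripts. The 89 genes also include 18 pseudogenes and the 35 whose models end at the stop codon.

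TPM scale reads by gene length and by library total. The reads behind them, estimated from the steps between low values, were 18640785, 21521153 and 24510563 in KD libraries 1 to 3 and 23757169, 22221981 and 18985396 in DE libraries 1 to 3. At that depth 1 TPM of a 500-base gene stood for 2.82 to 4.04 reads, and a value of 0 for such a gene allowed up to 0.742 to 1.06 TPM (3 reads, for counting error only). GATA6-AS1 had 180, 163 and 126 TPM in KD and 389, 421 and 313 TPM in DE, a log2 change of -1.26 (limma adjusted p = 0.0128; 2-sided exact permutation p = 0.1, the smallest that 3 against 3 libraries allow). The limma adjusted p was 0.0717 without DE replicate 1 and 0.0612 without KD replicate 2. Of 17711 genes tested, 314 were higher and 265 lower in KD. Mitochondrially encoded RNA took 28.3% to 36.2% of TPM in KD and 24.6% to 38.0% in DE, with the highest share in replicate 3 of both groups. The 9 endoderm markers summed to 18149 to 19931 TPM in KD and 25026 to 28679 TPM in DE, and the 7 pluripotency markers to 2632 to 3080 TPM in KD and 1782 to 2326 TPM in DE. Most of the endoderm sum was CER1, with 16124.3 to 17650.5 TPM in KD and 22060 to 25176.5 TPM in DE. Taken singly, the 9 endoderm markers had log2 changes from -1.07 to -0.31. The 7 mesenchymal markers summed to 73.97 to 79.6 TPM in KD and 46.5 to 55.6 TPM in DE. THY1, called higher, averaged 41.4 TPM in KD and 13.04 TPM in DE, and without it the other 6 summed to 29.01 to 40.5 TPM in KD and 31.9 to 42.5 TPM in DE. The 5 neuroectoderm markers summed to 163 to 184 TPM in KD and 116 to 160 TPM in DE. By limma, 5 of 9 endoderm markers were called lower in KD, where 1.5% of all genes tested were. Of 7 pluripotency markers, 5 were called higher, where 1.77% of all genes tested were. No marker was at 0 in every library, and the part of these shifts in the values below was not tested. In bulk RNA, fewer cells of a type and less RNA per cell cannot be told apart.

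Cluster histone RNA was scarce and lay mostly in 3 genes. The 89 genes together had 278, 252 and 209 TPM in the KD libraries and 264, 257 and 180 TPM in the DE libraries, which is 0.0180% to 0.0278% of a library. HIST1H2BK, HIST1H1C and HIST3H2A made up 51.9%, 58.0% and 61.7% of this sum in KD and 61.1%, 57.0% and 61.4% in DE. Averaged over all 6 libraries, these 3 genes exceeded 10 TPM, 25 genes lay between 1 and 10 TPM, 47 were detected at under 1 TPM and 14 were listed at 0 in every library. Of those 14, 7 are protein coding: HIST1H1T, HIST1H2AD, HIST1H2AK, HIST1H2AM, HIST1H2BA, HIST1H3D and HIST2H3PS2. By estimated reads, 5 genes averaged at least 100 reads per library, 22 at least 10 and 67 fewer than 10. The histone genes with other names stood far above: 21 of them, counting those at 0, summed to 2273, 2258 and 1849 TPM in KD and 2523, 2660 and 2071 TPM in DE.

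**Figure D1:**
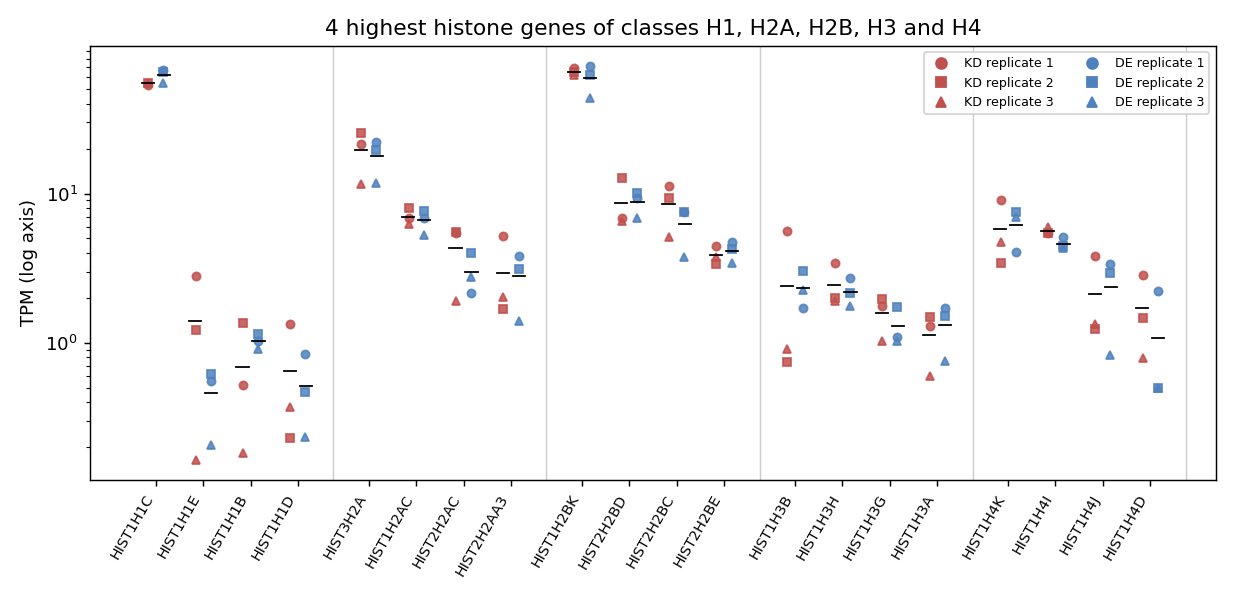
TPM (log axis) of the 4 genes with the highest mean level in each histone class, with 1 point per library, KD left of DE, and a black line at each group's mean. HIST1H1C, HIST1H2BK and HIST3H2A stand above 10 TPM in every library, and the points of KD and DE overlap for every gene except HIST1H4I.

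Among linker histones, HIST1H1C, which encodes H1.2, carried nearly all of the class. HIST1H1C (ENSG00000187837.3, chr6:26055787-26056428, minus strand) had 53.6, 55.0 and 55.3 TPM in the KD libraries and 67.5, 64.8 and 55.0 TPM in the DE libraries. The KD values lay within a narrow band that reached the lowest DE library, so the groups overlapped. Its mean was 54.6 ± 0.916 TPM in KD and 62.4 ± 6.58 TPM in DE (SD, n = 3 each), with the log2 change at -0.18 (95% interval -0.43 to 0.06, limma adjusted p = 0.508). The other H1 genes were near the detection limit. HIST1H1E, which encodes H1.4, had 2.82, 1.22 and 0.164 TPM in KD and 0.556, 0.620 and 0.205 TPM in DE, from 12, 6 and 1 reads in KD and 3, 3 and 1 reads in DE. HIST1H1B, which encodes H1.5, averaged 0.685 ± 0.603 TPM in KD and 1.03 ± 0.117 TPM in DE, and HIST1H1D, which encodes H1.3, averaged 0.645 ± 0.599 TPM in KD and 0.513 ± 0.306 TPM in DE (SD, n = 3 each). The testis H1 gene HIST1H1T was at 0 in every library.

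Among H2A genes, HIST3H2A led. HIST3H2A (ENSG00000181218.5, chr1:228456979-228457873, minus strand) had 21.6, 25.6 and 11.6 TPM in KD and 22.0, 19.5 and 11.8 TPM in DE. Its lowest library was replicate 3 in both groups, and the groups overlapped fully (log2 change 0.11, 95% interval -0.65 to 0.87, limma adjusted p = 0.954). HIST1H2AC had 6.81, 8.01 and 6.23 TPM in KD and 6.87, 7.66 and 5.29 TPM in DE, which put the log2 change at 0.08 (95% interval -0.30 to 0.46). HIST2H2AC, with 390 bases of exon and 6 to 14 reads per library, averaged 4.29 ± 2.07 TPM in KD and 2.97 ± 0.937 TPM in DE (SD, n = 3 each).

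HIST2H2AA3 and HIST2H2AA4 are near-identical copies, and their values cannot be told apart: 100% of the 75-base windows of HIST2H2AA3 transcripts and 96.9% of those of HIST2H2AA4 occur in another cluster gene. HIST2H2AA4 alone went between 1 read and 18 reads within KD and between 1 read and 15 reads within DE. Added together, the copies had 17, 24 and 19 reads (5.48, 6.58 and 4.22 TPM) in KD and 17, 26 and 6 reads (4.31, 7.26 and 1.68 TPM) in DE, which brought the KD libraries close to each other. In all, 13 of the 89 genes shared more than 50% of their windows with another member, among them HIST1H4J with HIST1H4K and HIST1H2AI with HIST1H2AJ, so their single values are uncertain.

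HIST1H2BK was the highest of all cluster genes, at place 2275 of the 58830 rows by mean TPM. HIST1H2BK (ENSG00000197903.7, chr6:27146418-27146798, minus strand) had 69.4, 65.3 and 62.0 TPM in the KD libraries and 71.9, 62.1 and 43.9 TPM in the DE libraries. DE replicate 1 lay above the range of KD and DE replicate 3 below it. The mean was 65.6 ± 3.67 TPM in KD and 59.3 ± 14.2 TPM in DE (SD, n = 3 each), with the log2 change at 0.17 (95% interval -0.25 to 0.58, limma adjusted p = 0.796), and without DE replicate 3 the log2 change was -0.03. Its gene model holds 381 bases and ends at the stop codon, and with that length its values came out as whole reads in all 6 libraries. Whether reads that run past the stop codon were counted is not stated, so RNA beyond it may enter the value.

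HIST2H2BD and HIST2H2BC, the next H2B rows, are transcribed pseudogenes on opposite strands whose annotated spans overlap in part (chr1:149842875-149846486 and chr1:149844498-149850937). With an unstated strand setting, reads of the shared stretch cannot be told apart. Both are among the 4 cluster genes whose estimated reads were not whole in all libraries. HIST2H2BD averaged 8.71 ± 3.52 TPM in KD and 8.79 ± 1.67 TPM in DE, and HIST2H2BC averaged 8.57 ± 3.16 TPM in KD and 6.24 ± 2.17 TPM in DE (SD, n = 3 each). HIST2H2BC had 11.3, 9.27 and 5.12 TPM in KD and 7.47, 7.52 and 3.74 TPM in DE, with KD above DE in each of the 3 same-numbered pairs. Its log2 change of 0.39 had a 95% interval of -0.37 to 1.15 (limma adjusted p = 0.708), and with the replicate block 0.15 to 0.63 (adjusted p = 0.0543), the smallest adjusted p of a cluster gene in that fit. HIST2H2BE, a protein-coding gene known to give polyadenylated mRNA, had 4.47, 3.40 and 3.78 TPM in KD and 4.70, 4.27 and 3.43 TPM in DE, with the log2 change at -0.07 (95% interval -0.45 to 0.31).

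No H3 gene reached 10 TPM. HIST1H3B, which encodes H3.1, had 5.61, 0.747 and 0.903 TPM in KD and 1.70, 3.03 and 2.26 TPM in DE. Its KD libraries enclosed the DE range, with 13 reads in KD replicate 1 against 2 and 3 reads in KD replicates 2 and 3. HIST1H3H averaged 2.44 ± 0.866 TPM in KD and 2.20 ± 0.483 TPM in DE, and HIST1H3G averaged 1.59 ± 0.498 TPM in KD and 1.29 ± 0.394 TPM in DE (SD, n = 3 each). HIST1H3A had 2 to 5 reads in each library. HIST3H3, known from the testis, had 3, 1 and 1 reads in KD and 0, 1 and 0 reads in DE, and of the other testis-type genes HIST1H2AA had 1 read in 1 library of each group and HIST1H2BA none. None of the 4 testis-type genes passed the filter.

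Among H4 genes, nearly all of which encode the same protein, HIST1H4K and HIST1H4I were highest. HIST1H4K had 9.10, 3.44 and 4.76 TPM in KD and 4.03, 7.49 and 6.95 TPM in DE, and every 75-base window of it also occurs in HIST1H4J. HIST1H4I (ENSG00000276180.1, chr6:27138588-27139881, plus strand) had 5.48, 5.46 and 5.93 TPM in KD and 5.08, 4.45 and 4.31 TPM in DE. Its KD libraries all lay above DE, but the log2 change of 0.24 did not pass (95% interval -0.05 to 0.53, limma adjusted p = 0.446). HIST1H4J averaged 2.12 ± 1.46 TPM in KD and 2.38 ± 1.36 TPM in DE, and HIST1H4D averaged 1.70 ± 1.04 TPM in KD and 1.08 ± 1.01 TPM in DE (SD, n = 3 each).

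**Figure D2:**
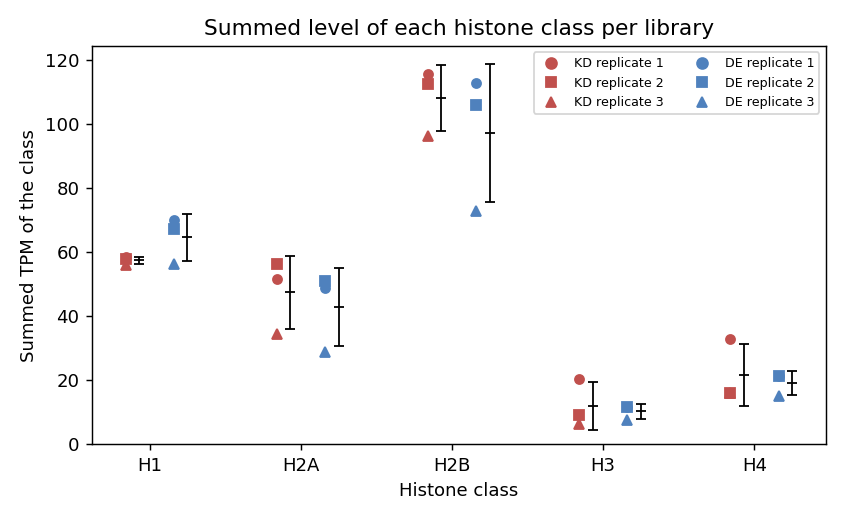
Summed TPM of all genes of each histone class, with 1 point per library, KD left of DE, and the mean with its SD as a black bar beside each group. H2B and H1 hold the largest sums, replicate 3 is the lowest DE library in every class, and KD replicate 1 stands apart from the other KD libraries in H3 and H4.

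Summed by class, KD and DE overlapped in all 5 classes. Class H1 summed to 57.4 ± 1.18 TPM in KD and 64.5 ± 7.20 TPM in DE, and H2A to 47.4 ± 11.5 TPM in KD and 42.8 ± 12.3 TPM in DE (SD, n = 3 each). Class H2B summed to 108 ± 10.3 TPM in KD and 97.1 ± 21.4 TPM in DE. H3 summed to 11.8 ± 7.44 TPM in KD and 10.3 ± 2.34 TPM in DE, and H4 to 21.7 ± 9.60 TPM in KD and 19.1 ± 3.61 TPM in DE. In the H3 class KD replicate 1 had 20.3 TPM, against 9.01 and 6.21 TPM in KD replicates 2 and 3 and 11.8, 11.6 and 7.61 TPM in DE. In the H4 class it had 32.7 TPM, against 16.1 and 16.1 TPM in the other KD libraries and 21.1, 21.3 and 15.0 TPM in DE. Without KD replicate 1 the log2 ratio of the mean H3 sums, KD to DE, was -0.44 in place of 0.20, and that of the H4 sums was -0.25 in place of 0.18. Pseudogenes gave 6.18% to 9.58% of the summed TPM of all members in KD and 7.08% to 8.21% in DE.

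Many cluster genes for H2A and H2B stand in pairs that point away from each other. Within 500 bases, 16 such pairs of starts were annotated, 12 of them between protein-coding genes and 11 of these between an H2A and an H2B gene. Partners with close starts differed widely in level per length. HIST1H2BK averaged 62.4 TPM over the 6 libraries while HIST1H2AH, whose start lies 331 bases away, averaged 0.450 TPM from 1 or 2 reads in each library. HIST3H2A averaged 18.7 TPM and HIST3H2BB, 234 bases away, 0.595 TPM. In contrast, HIST2H2BE and HIST2H2AC averaged 4.01 and 3.63 TPM, and HIST1H2BJ and HIST1H2AG 3.37 and 2.83 TPM. The higher partner was above the lower one in all 6 libraries in HIST1H2BK with HIST1H2AH, HIST3H2A with HIST3H2BB, HIST1H2AC with HIST1H2BC, HIST1H2AE with HIST1H2BG and HIST1H2BO with HIST1H3J. The annotated start of HIST1H3J lies inside HIST1H2AM, on the same strand. HIST1H2BO is also counted as a pair with HIST1H2AM, which was at 0 in every library. These are values set side by side, without a test, and they depend on where each gene model ends.

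**Figure D3:**
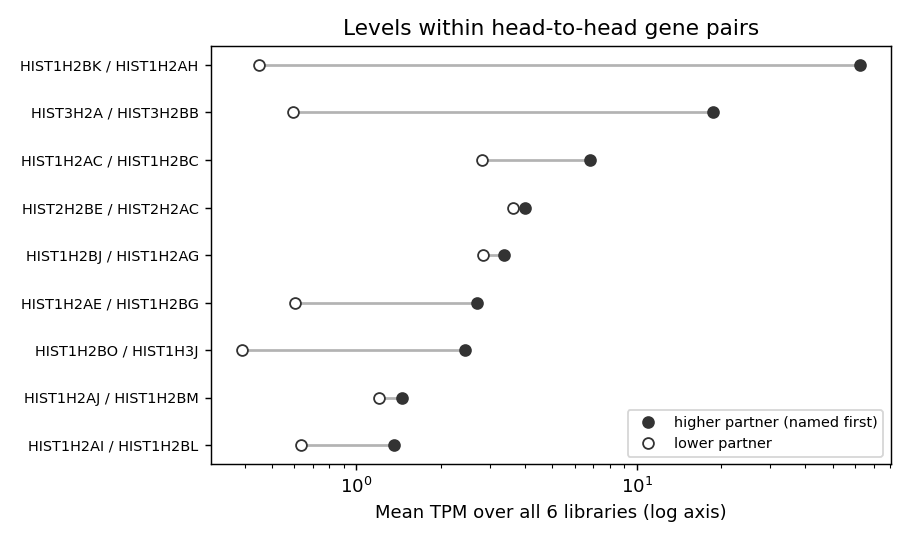
Mean TPM over all 6 libraries (log axis) of both partners in 9 head-to-head pairs of protein-coding histone genes. The higher partner is filled and the lower one open. Pairs with a partner listed at 0 are left out, among them HIST1H2BO with HIST1H2AM. The gap is widest for HIST1H2BK and HIST1H2AH, and narrowest for HIST2H2BE and HIST2H2AC.

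The promoters of these genes carried motifs typical of histone genes. RefSeq windows from 250 bases before to 50 after the start (GRCh38.p14, first listed start of each gene) were matched for 61 of the 89 genes and searched on both strands for CCAAT, the box bound by NF-Y, TATAAA, the TATA box, and TTTGCAT, the core of the octamer bound by POU2F1 (OCT1). CCAAT stood in 51 of 61 windows (83.6%), against 35.7% of the 27305 windows of all genes. It was in every matched window of classes H1 (6), H2A (16), H2B (13) and H3 (13), but in 3 of 13 H4 windows. TATAAA stood in 41 windows (67.2%, against 11.95% of all). TTTGCAT stood in 9 of 13 H2B and 11 of 16 H2A windows (69.2% and 68.8%), in 1 H3 window and in no H1 or H4 window, against 4.51% of all. Windows of head-to-head partners overlap, so their matches are not separate. A match is a string of letters, not a bound site.

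Windows of 4 genes are given, with all matches in capitals: the pair with the highest levels, the gene with the smallest unadjusted p among the 32 genes tested without the block and, of the H4 genes whose KD and DE libraries did not overlap, the one with the widest gap.

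HIST1H2BK: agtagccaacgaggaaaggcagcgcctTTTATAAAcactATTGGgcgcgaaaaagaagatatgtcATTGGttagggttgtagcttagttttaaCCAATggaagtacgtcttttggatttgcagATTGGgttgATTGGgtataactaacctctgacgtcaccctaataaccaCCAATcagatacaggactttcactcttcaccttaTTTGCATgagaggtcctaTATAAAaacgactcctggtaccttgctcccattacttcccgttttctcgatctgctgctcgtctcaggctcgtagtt
HIST1H1C: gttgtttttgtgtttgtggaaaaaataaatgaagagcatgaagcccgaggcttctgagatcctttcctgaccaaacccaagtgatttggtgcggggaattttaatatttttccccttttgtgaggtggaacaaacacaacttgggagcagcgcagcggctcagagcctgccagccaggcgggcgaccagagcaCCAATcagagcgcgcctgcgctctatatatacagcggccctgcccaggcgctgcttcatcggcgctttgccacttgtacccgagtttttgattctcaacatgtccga
HIST1H2BO: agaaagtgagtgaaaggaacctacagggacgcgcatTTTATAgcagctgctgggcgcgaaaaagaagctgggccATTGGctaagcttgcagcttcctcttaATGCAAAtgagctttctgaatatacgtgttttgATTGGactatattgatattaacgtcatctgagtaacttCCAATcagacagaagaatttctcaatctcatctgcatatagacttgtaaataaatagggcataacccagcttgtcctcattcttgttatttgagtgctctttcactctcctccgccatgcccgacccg
HIST1H4H: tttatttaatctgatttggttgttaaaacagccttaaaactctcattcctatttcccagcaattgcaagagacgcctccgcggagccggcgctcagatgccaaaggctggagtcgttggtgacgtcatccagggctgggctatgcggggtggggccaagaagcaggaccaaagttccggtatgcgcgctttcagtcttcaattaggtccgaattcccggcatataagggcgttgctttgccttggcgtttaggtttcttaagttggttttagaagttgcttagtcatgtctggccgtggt

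Their positions are HIST1H2BK chr6:27146809-27147108 (minus strand), HIST1H1C chr6:26056421-26056720 (minus strand), HIST1H2BO chr6:27893175-27893474 (plus strand), HIST1H4H chr6:26285485-26285784 (minus strand). HIST1H2BK has TTTGCAT from position -45 and TATAAA from position -27, counted from the start, and 6 CCAAT boxes. HIST1H1C has a single CCAAT from position -57. HIST1H2BO has TTTGCAT on the other strand from position -149. The HIST1H4H window held none of these letters.

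No cluster histone gene was called as different between KD and DE in the test over all genes. Of the 89 genes, 32 passed the filter (1 TPM or more in 3 or more libraries), and of these 0 were called at an adjusted p of 0.05 (limma on log2(TPM + 1), Benjamini-Hochberg over all 17711 genes), where 3.27% of all genes tested were called. By direction, 0 were higher in KD, against 1.77% of all genes, and 0 were lower, against 1.5%. With 32 genes, a count of 0 lies near these shares. At an unadjusted p under 0.05 there was 1, HIST1H2BO, against 15.4% of all genes. With the replicate number as a block, 0 were called, against 12.5% of all genes (5.88% higher and 6.62% lower). Limma's voom on the estimated reads also called 0, against 12.6% of all genes (6.44% higher and 6.16% lower). When every gene with a value above 0 was tested, 75 cluster genes entered and 0 were called, against 0.646% of all genes (0.357% higher and 0.289% lower). With 75 genes, that count too lies near the share of all genes. The filter leaves out low genes: HIST2H4B (0.841 TPM) and HIST1H3F (0.848 TPM) were the lowest to pass it, and HIST1H1E (0.932 TPM) and HIST1H2APS4 (0.914 TPM) the highest to miss it.

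The log2 changes of the 32 genes ran from -0.32 for HIST1H1B to 0.84 for HIST1H2BO, 18 above 0 and 14 below. Their median was 0.07, and that of all 17711 genes was -0.01. By class the medians were -0.25 for 2 H1 genes, 0.08 for 9 H2A genes, 0.17 for 10 H2B genes, -0.13 for 5 H3 genes and 0.11 for 6 H4 genes. The intervals show what these libraries could resolve on the scale of log2(TPM + 1), which understates changes of low genes. For 24 genes the 95% interval lay within 1 either way on that scale, for HIST1H1C, HIST1H2AC and HIST2H2BE within 0.5, and for 8 it reached past 1. For a low gene this does not bound the change of its TPM. The interval of HIST1H1B was -0.98 to 0.33, against -2.24 to 0.54 by voom. That of HIST2H4B was -0.64 to 0.61, against -1.24 to 1.03 by voom.

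**Figure D4:**
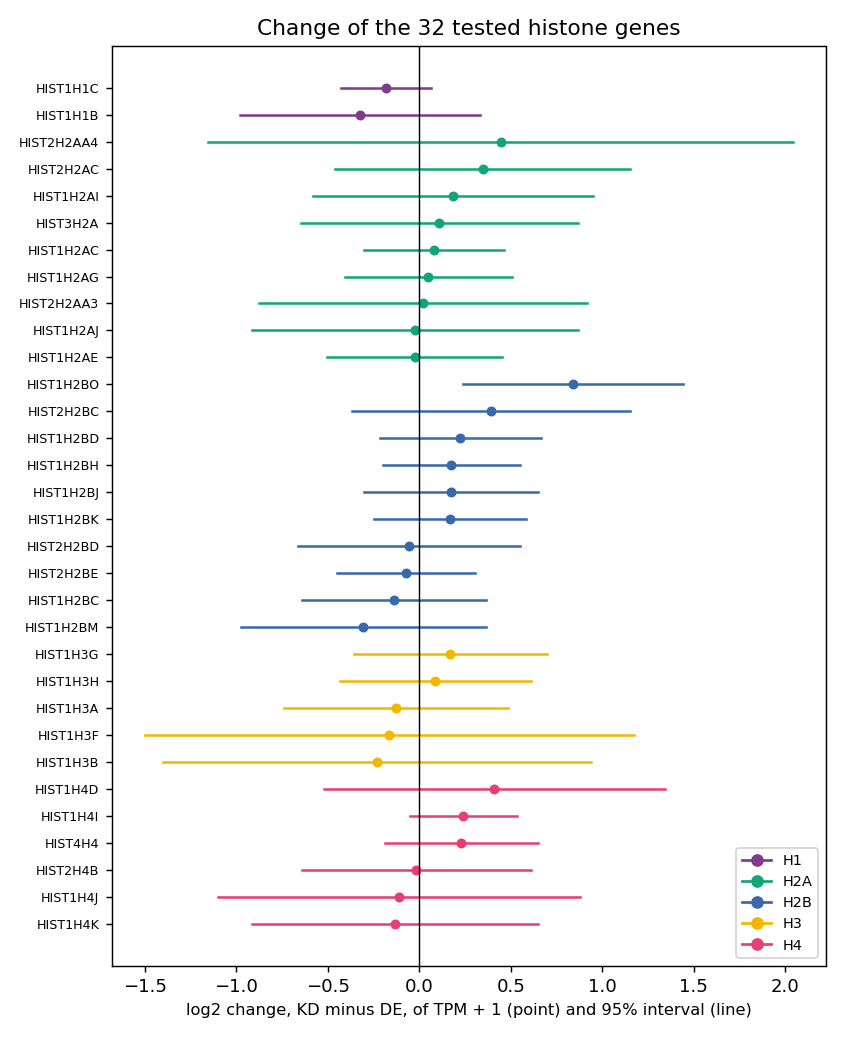
Log2 change of TPM + 1, KD minus DE, of the 32 cluster histone genes that passed the filter, as a point with its 95% interval from limma, ordered and coloured by class. Every interval except that of HIST1H2BO includes 0, and the widest belong to low genes and near-identical copies such as HIST2H2AA4.

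Some cluster genes had KD and DE libraries that did not overlap. Of the 32 tested genes, 3 had every KD library above every DE library (HIST1H2BO, HIST1H4I and HIST4H4), where this held for 10.1% of all genes tested, and 0 had every KD library below, where this held for 10.7%. These genes and those in the next sentences, other than HIST1H4I, were singled out after their values were seen. Of the 75 members with a value above 0, HIST1H4H, HIST1H2BG and HIST1H3J had KD above DE too, 6 in all, where this held for 6.46% of all such genes, and HIST1H2BF had KD below, where this held for 7.1%. The counts with KD above, 3 of 32 and 6 of 75, lie near the shares of all genes. Those with KD below, 0 of 32 and 1 of 75, lie under theirs, and no test was run on these counts. HIST1H2BF rested on 1, 1 and 0 reads in KD and 3, 2 and 3 reads in DE.

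HIST1H2BO had 2.79, 2.42 and 5.20 TPM in KD and 1.83, 1.23 and 1.22 TPM in DE, from 6, 6 and 16 reads in KD and 5, 3 and 3 reads in DE. The highest value came from KD replicate 3. The log2 change was 0.84 (SE 0.256, limma adjusted p = 0.157, unadjusted 0.0127, and adjusted p = 0.0742 with the replicate block). HIST1H4H (ENSG00000158406.4, chr6:26277609-26285638, minus strand), one of the H4 genes with an AATAAA signal at a transcript end, had 1.48, 0.994 and 1.32 TPM in KD and 0.582, 0.360 and 0.215 TPM in DE. Its reads were 18, 14 and 23 in KD and 9, 5 and 3 in DE, so all 3 KD libraries held more than any DE library. It reached 1 TPM in 2 libraries only and was not tested. With no filter its log2 change was 0.71 and it did not pass (limma adjusted p = 0.192, unadjusted 0.00587). HIST4H4, the single gene of its cluster on chromosome 12, had 1.31, 1.01 and 1.06 TPM in KD and 0.922, 0.725 and 0.781 TPM in DE (limma adjusted p = 0.673).

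Genes described to make polyadenylated mRNA held the larger share of cluster histone RNA, mostly through HIST1H2BK and HIST1H1C. The list of these comprised HIST1H1C, HIST1H2AC, HIST1H2BC, HIST1H2BD, HIST1H2BJ, HIST1H2BK and HIST2H2BE. The 7 genes summed to 144, 141 and 134 TPM in KD and 160, 147 and 114 TPM in DE, that is, 51.9%, 56.1% and 64.0% of the summed level of all members in KD and 60.6%, 57.3% and 63.3% in DE. Over all 6 libraries HIST1H2BK averaged 62.4 TPM and HIST1H1C 58.5 TPM, while HIST1H2AC, the next of the list, averaged 6.81 TPM. The other 82 genes summed to 134, 110 and 75.1 TPM in KD and 104, 110 and 66.2 TPM in DE. Some of these, such as HIST2H2BC and HIST2H2BD, had AATAAA at a transcript end, while the gene models of HIST1H2BK and HIST1H1C had none there. Within the list, 0 of 7 tested genes were called in limma, where 3.27% of all genes were, and the median log2 change was 0.08. With 7 genes, a count of 0 lies near that share. HIST1H2BD averaged 2.43 ± 0.379 TPM in KD and 1.94 ± 0.468 TPM in DE, and HIST1H2BJ averaged 3.62 ± 0.661 TPM in KD and 3.12 ± 0.846 TPM in DE (SD, n = 3 each).

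Some small RNAs without a poly(A) tail were highest in KD replicate 1. The 14 RNAs of this kind that were looked up summed to 169, 14.8 and 5.41 TPM in KD and 16.7, 40.9 and 11.6 TPM in DE. RPPH1, the RNA of ribonuclease P, had 99.5, 1.44 and 0 TPM in KD and 1.53, 0.732 and 0.243 TPM in DE. RN7SK, which holds back the elongation factor P-TEFb, had 47.2, 5.10 and 1.495 TPM in KD and 7.60, 22.1 and 3.27 TPM in DE. RMRP, the RNA of ribonuclease MRP, had 11.3, 0.573 and 0 TPM in KD and 1.04, 3.49 and 1.16 TPM in DE. Other RNAs of the list peaked elsewhere: SNORD3A at 5.13 TPM and SCARNA13 at 4.53 TPM in DE replicate 2, and SCARNA10 at 3.28 TPM in DE replicate 3. Of the 14, 6 were tested and 0 called in limma, where 3.27% of all genes were. At an unadjusted p under 0.05 there were 0, against 15.4% of all genes. Voom, which had no value for RMRP, called 0, against 12.6%. With 6 genes, a count of 0 lies near the share of all genes called. RN7SL2, SCARNA7 and RNU11 were at 0 in every library. Of the 32 tested cluster histone genes, 13 had their highest value in KD replicate 1, where 17.1% of all genes tested had theirs, and 9 in KD replicate 2 (19.4% of all genes). The lowest value lay in DE replicate 3 for 15 and in KD replicate 3 for 10, against 46.2% and 28.2% of all genes. HIST1H4C had 9, 0 and 0 reads in KD and 2, 0 and 0 reads in DE. The part of this library's small RNA in its histone values was not tested. Without KD replicate 1 no cluster histone gene was called either.

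**Figure D5:**
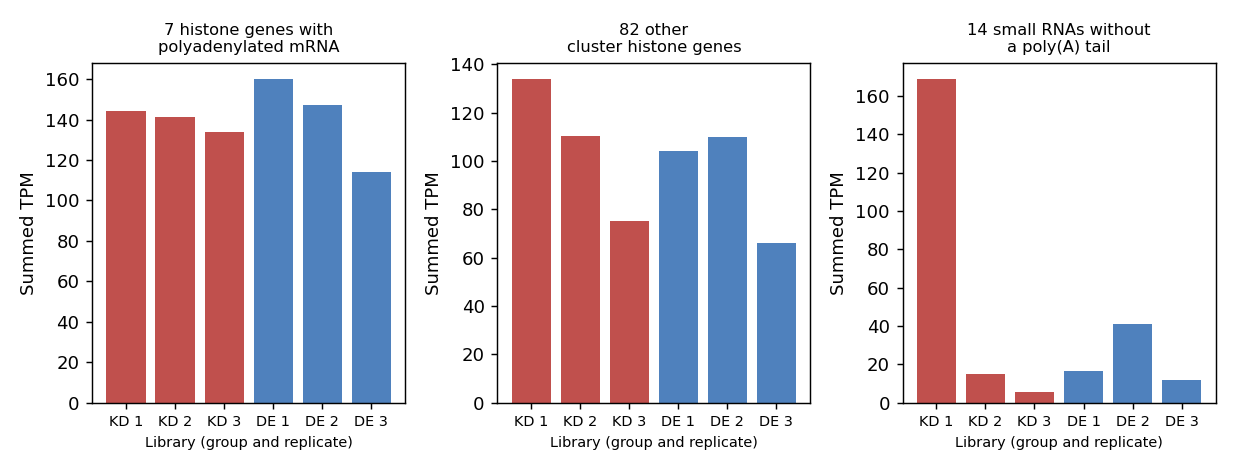
Summed TPM per library, with a bar for each KD library followed by each DE library. The panels show the 7 cluster histone genes described to make polyadenylated mRNA, the other 82 cluster genes, and 14 small RNAs without a poly(A) tail. Some of the 82 genes also have AATAAA at a transcript end. KD replicate 1 reaches 169 TPM in the small RNAs, where no other library passes 40.9 TPM, and is also the highest in the 82 genes.

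Outside the clusters, 2 histone genes were lower in KD and none was higher. Of 21 histone genes with other names, 11 were tested, with 2 called lower where 1.5% of all genes were, and 0 called higher where 1.77% were. H1F0, which encodes the replacement linker histone H1.0 found in differentiated cells, had 223, 216 and 221 TPM in KD and 356, 362 and 332 TPM in DE. All KD libraries lay far below DE, with a log2 change of -0.67 (SE 0.0798, limma adjusted p = 0.00953). H2AFY2, which encodes the variant macroH2A2, had 437, 436 and 436 TPM in KD and 587, 606 and 565 TPM in DE, a log2 change of -0.42 (limma adjusted p = 0.0323). H2AFY, which encodes macroH2A1, averaged 31.7 ± 0.634 TPM in KD and 42.5 ± 1.56 TPM in DE (SD, n = 3 each) and did not pass (limma adjusted p = 0.0564; 0.0119 with the replicate block, which called 3 genes lower and 0 higher in this list, against 6.62% and 5.88% of all genes). The call of H1F0 was lost without DE replicate 1 (adjusted p = 0.0766), KD replicate 1 (0.0503) or KD replicate 2 (0.0794), while its log2 change stayed between -0.70 and -0.64 without any 1 library. Leaving out DE replicate 1 or 2 or any KD library raised the limma adjusted p of H2AFY2 to between 0.101 and 0.186, while its log2 change stayed between -0.45 and -0.40 without any 1 library.

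The other tested histone genes outside the clusters had no call. H3F3A and H3F3B, which both encode H3.3, averaged 374 ± 70.6 and 225 ± 37.6 TPM in KD and 367 ± 82.4 and 238 ± 45.0 TPM in DE (SD, n = 3 each). H2AFZ averaged 239 ± 55.3 TPM in KD and 245 ± 61.0 TPM in DE, and H2AFX, the variant phosphorylated at DNA breaks, 380 ± 49.4 TPM in KD and 349 ± 45.1 TPM in DE. H2AFJ averaged 17.7 ± 1.47 TPM in KD and 13.8 ± 0.706 TPM in DE (log2 change 0.33, limma adjusted p = 0.190). The median log2 change of the 11 genes was -0.03.

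Of 21 genes that transcribe, process or degrade cluster histone mRNA, 20 were tested and 0 passed in limma, where 3.27% of all genes did, with log2 changes from -0.18 to 0.23. At an unadjusted p under 0.05 there were 0, against 15.4% of all genes, and voom called 1, POU2F1 (adjusted p = 0.0388), against 12.6% of all genes. With 20 genes, a count of 0 lies near the share of all genes called. SLBP had 105, 108 and 86.8 TPM in KD and 107, 117 and 86.0 TPM in DE (log2 change -0.05, 95% interval -0.38 to 0.29). NPAT averaged 18.96 ± 1.95 TPM in KD and 17.03 ± 3.16 TPM in DE (SD, n = 3 each; log2 change 0.16, 95% interval -0.22 to 0.53, and 0.0060 to 0.26 without 1 library). POU2F1, the octamer-binding factor, averaged 17.2 ± 0.688 TPM in KD and 14.6 ± 1.70 TPM in DE, a log2 change of 0.23.

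Of the chaperones that carry histones to DNA, 0 of 20 tested passed in limma, again near the 3.27% of all genes called, and their median log2 change was -0.01. At an unadjusted p under 0.05 there were 0, against 15.4% of all genes, and voom called 0, against 12.6%. NASP, a chaperone of H3 and H4, averaged 337 ± 14.1 TPM in KD and 296 ± 8.57 TPM in DE (SD, n = 3 each; limma adjusted p = 0.334), and CHAF1A, a subunit of chromatin assembly factor 1, 121 ± 7.51 TPM in KD and 104 ± 9.44 TPM in DE.

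Cell cycle genes were counted because cluster histones are made in S phase. Of 33 S phase genes, which include SLBP and CHAF1A, 0 passed in limma, where 3.27% of all genes did, and 0 had an unadjusted p under 0.05, where 15.4% of all genes did. Their median log2 change was 0.01. UHRF1 and MCM6, with 36.2 ± 3.38 and 295 ± 29.8 TPM in KD and 45.9 ± 7.53 and 362 ± 53.6 TPM in DE (SD, n = 3 each), passed as lower with the replicate block (limma adjusted p = 0.0320 and 0.0245) and by voom, fits that called 12.5% and 12.6% of all genes. Of 24 G2 and M phase genes, 0 passed in limma, near the 3.27% of all genes called, and 1 had an unadjusted p under 0.05, against 15.4% of all genes. Their log2 changes were all above 0, from 0.02 to 0.45, with a median of 0.14, where the median of all genes tested was -0.01. The list as a whole was not tested. BUB1B, a spindle checkpoint kinase, averaged 137 ± 3.41 TPM in KD and 101 ± 9.32 TPM in DE and missed the threshold (limma adjusted p = 0.0599; 0.0118 with the replicate block and 0.00251 by voom).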

How the data were processed

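RNA-seq of 3 KD and 3 DE libraries was deposited by the authors as 1 table of TPM, scaled to the same total in each column. HISAT2 2.1.0, featureCounts, DESeq2 and GRCh38 stand without roles in the submitters' processing notes. Annotation release, strand setting, poly(A) selection and filters were not given in the sources used here. A gene's TPM fall when another class of RNA takes more of the library. TPM keep no depth, so reads were estimated as TPM times GENCODE 29 exon length over 1 constant per library; of values under 50 reads, 88.3% to 89.0% lay within 0.02 of a whole number, and 85 of the 89 cluster genes gave whole reads in all libraries.

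Genes of 1 TPM or more in 3 or more libraries were tested on log2(TPM + 1) by limma 3.58.1 in R 4.3.3 (group term, eBayes with trend, 2-sided, Benjamini-Hochberg over all genes tested, threshold 0.05), a scale that understates changes of low genes; the fit was tested on simulated data. Python 3.11.15 served for the rest. Sums and shares over members got no p. The members and lists were chosen with earlier results of these data known. Named genes were the 4 highest of each class by mean TPM, any member called, up to 4 of each list by p, SLBP and NPAT; others named were chosen after their values were seen. Alternatives were other pseudocounts, filters, scalings, thresholds, limma without trend, voom on the estimated reads, the replicate number as a block, and leaving out libraries.

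Both groups carry replicate numbers 1 to 3 in their titles. After removal of group means, same-numbered KD and DE libraries correlated over genes at 0.108, 0.144 and 0.347, all over the limit of 0.1, so the block is given beside results it changes. KD replicate 1 also correlated with DE replicate 2 at 0.121, and no label states a pairing.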

Additional observations from a re-analysis of the deposited data

How the results depend on the processing

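The count of 0 called cluster histone genes held, higher and lower, under every alternative, the replicate block and each left-out library included, and the block changed no call of a cluster gene. The counts over all genes moved: higher and lower in KD were 879 and 864 with median-ratio scaling, 860 and 875 with quantile normalization, 874 and 808 without mitochondrial genes, 945 and 904 by voom, 1042 and 1173 with the replicate block, 507 and 705 with replicates 1 and 2 of both groups, 132 and 107 with no filter, 73 and 33 at a threshold of 0.01, and 61 to 248 and 24 to 362 without 1 library. The log2 changes of some named genes took the other sign: with replicates 1 and 2 of both groups, HIST2H2AA3 had a log2 change of -0.13, HIST1H3B 0.042, HIST1H4K 0.035 and SCARNA10 0.23, and by voom HIST2H2AA3 had -0.045, all without a call. Without 1 library the log2 changes ran from -0.15 to 0.43 for HIST3H2A, -0.049 to 0.18 for HIST1H2AC, -0.35 to 0.25 for HIST2H2AA3, -0.029 to 0.32 for HIST1H2BK, -0.34 to 0.10 for HIST2H2BD, -0.17 to 0.0095 for HIST2H2BE, -0.85 to 0.11 for HIST1H3B, -0.11 to 0.20 for HIST1H3H, -0.32 to 0.067 for HIST1H3A, -0.46 to 0.13 for HIST1H4K, -0.50 to 0.13 for HIST1H4J, -0.17 to 3.15 for RPPH1, -0.78 to 0.017 for SCARNA10, -0.51 to 0.19 for SCARNA13, -0.17 to 0.051 for SLBP. The median of the tested cluster genes lay between -0.13 and 0.17 without 1 library. Class log2 ratios ran from -0.26 to -0.11 for H1, -0.075 to 0.33 for H2A, -0.017 to 0.28 for H2B, -0.44 to 0.51 for H3, -0.25 to 0.35 for H4, and that of H1 without HIST1H1C was 0.39.

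Lower calls among histone genes outside the clusters numbered 1 without the trend, with no filter and at 0.01, and 0 to 3 without 1 library. S phase genes had 2 lower calls and G2 and M genes 1 higher call under median-ratio or quantile scaling, without mitochondrial genes, by voom, with the replicate block and with replicates 1 and 2 of both groups, and the list of histone mRNA processing had 1 by voom. GATA6-AS1 missed a threshold of 0.01 at a log2 change of -1.26, and ran from -1.38 to -1.11 without 1 library. The cause of these shifts was not tested. Depth limits the cluster genes: 67 of 89 averaged fewer than 10 reads.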
